A study of Mus musculus with 18 samples.

Results

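The genes described here are 10 extracellular matrix and secreted genes known from steroid glaucoma: Myoc, Angptl7, Fn1, Prg4, Postn, Dpt, Thbs1, Tnc, Sparc and Mgp. They were taken as every probe set (the group of short probes that reports 1 transcript on an Affymetrix array) annotated to one of these symbols alone, which gave 14 of the 45101 probe sets of the array. They covered 9 of the 10 genes, among 18194 genes with such a probe set. Myoc, which encodes myocilin, a secreted glycoprotein that steroids are known to induce in the drainage tissue of the eye, had 0 such probe sets and is not analysed here. The gene set was chosen by name and not by its values on these arrays, although results of these data were already known when it was drawn up.

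Glucocorticoids act through the glucocorticoid receptor, a transcription factor that enters the nucleus when it binds the steroid and switches target genes on or off. In the trabecular meshwork, the sieve at the front of the eye through which aqueous humour drains, prolonged steroid exposure is known to raise the production of myocilin, fibronectin and other matrix proteins, and outflow then becomes harder. The tissue measured here lies at the other end of the eye. The retinal pigment epithelium (RPE) is the pigmented cell layer under the photoreceptors, and the choroid beneath it is a bed of vessels and fibroblasts, which also make matrix.

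The RPE/choroid of male C57BL6/J mice was measured on 18 arrays, 3 in each of 6 groups. Each animal had received 1 intravitreal injection of 1 μL, and the groups were dexamethasone (Dex, 10 μg) at day 30, triamcinolone acetonide (TAA, 25 μg) at day 30, the vehicle balanced salt solution (BSS) at day 30, and Dex, TAA and BSS in the same amounts at day 7. The labels give the age as 2 months and the methods as 6 to 8 weeks, the light cycle was 12 h, and all groups carried the injection itself, so no uninjected eye entered the comparison. The methods state that 4 animals were injected per group and that those with the best RNA were put on arrays. They also state that sclera was taken away only after the cells had been lysed. Because the choroid holds firmly to the inner sclera, the methods judge that most of it likely stayed attached. How much choroid these arrays measured is therefore not known.

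The values are log2 expression centred so that each probe set has its median over all arrays at 0, and a difference of 1 between arrays is 2-fold. Such values hold no level, so neither the abundance of a gene nor the presence of RPE markers could be read from them. The score of a marker list, the mean of its centred values on an array, spanned -0.20 to 0.19 for 9 RPE genes and -2.32 to 4.32 for 6 rod photoreceptor genes over the 18 arrays. BSS day 30 replicate 1 stood apart, with scores of -1.10 for 7 tendon and sclera genes and -0.70 for 6 choroid endothelium genes. Its rod score of 4.32 did not stand apart, since BSS day 30 replicate 3 had 4.23 and Dex day 30 replicate 3 had 4.12. The differences of single genes that move by over 1.5 times or change sign without BSS day 30 replicate 1 are also given without it where they are named. The methods state that all mice were injected on the same day and that tissue was collected in the morning, within 1 h. Day 30 animals were older than day 7 animals, further from the injection and collected on another date, and these cannot be told apart.

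Promoter sequence is shown for 3 genes to which the results below return: Angptl7, whose expression fell between the days, Dpt, which had the largest difference after a steroid, and Sparc, the gene of this set with a receptor half-site in the window. Each is the 250 bases before the transcription start in RefSeq (GRCm38.p6), read 5′ to 3′ on the gene's own strand, at chr4:148500463-148500712 (minus strand) for Angptl7, chr1:164796413-164796662 (plus strand) for Dpt and chr11:55420081-55420330 (minus strand) for Sparc. Capitals mark the half-site AGAACA or its reverse complement TGTTCT.
Angptl7: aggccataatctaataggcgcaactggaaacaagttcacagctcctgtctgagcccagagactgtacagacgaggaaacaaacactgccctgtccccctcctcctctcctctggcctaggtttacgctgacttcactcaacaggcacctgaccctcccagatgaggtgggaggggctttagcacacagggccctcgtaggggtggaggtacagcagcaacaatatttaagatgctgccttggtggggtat
Dpt: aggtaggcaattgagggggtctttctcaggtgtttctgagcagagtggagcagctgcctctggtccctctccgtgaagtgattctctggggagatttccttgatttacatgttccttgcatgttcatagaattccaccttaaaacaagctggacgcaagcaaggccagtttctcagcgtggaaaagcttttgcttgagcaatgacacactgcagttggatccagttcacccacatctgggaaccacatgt
Sparc: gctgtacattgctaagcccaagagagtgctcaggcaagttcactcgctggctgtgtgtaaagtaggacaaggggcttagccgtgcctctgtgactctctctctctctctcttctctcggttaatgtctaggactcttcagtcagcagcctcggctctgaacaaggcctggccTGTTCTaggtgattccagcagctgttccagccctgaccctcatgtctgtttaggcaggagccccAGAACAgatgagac
The windows of 6 of the 10 genes were in the promoter table, 8 windows in all, with Myoc, Postn and Tnc beside the 3 shown. Both strands of each were searched for AGAACA, for the full glucocorticoid response element, in which AGAACA and TGTTCT stand 3 bases apart, for the clock element CACGTG and for TTATGTAA, the D-box. Only Sparc had a match, with TGTTCT starting 78 bases and AGAACA 14 bases before the start. AGAACA occurred on either strand in 16.1% of all 32851 windows of this length, the full element in 0.00913%, CACGTG in 6.02% and TTATGTAA in 0.819%. Fn1, Prg4, Thbs1 and Mgp had no entry.

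Angptl7 and Prg4 were the members that fell between the days. Angptl7 encodes a secreted angiopoietin-like protein that is abundant in trabecular meshwork and cornea, and Prg4 encodes lubricin, the mucin-like glycoprotein that lubricates joints and the ocular surface. Averaged over the 3 treatments, Angptl7 was lower at day 30 than at day 7 by a log2 difference of -1.27 (SE 0.18, 95% interval -1.64 to -0.89), which is 2.40-fold, and Prg4 by -1.35 (SE 0.19, 95% interval -1.75 to -0.94), which is 2.54-fold. Both passed limma's test with Benjamini-Hochberg adjustment over all probe sets, at adjusted p = 0.00656 for Angptl7 and adjusted p = 0.00736 for Prg4. These were 2 of 14 probe sets called, both lower, where 0.399% of all probe sets were called and 0.308% were called as lower.

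Across the 9 arrays of each day, the centred log2 value of Angptl7 had a lowest, median and highest of -1.73, -0.47 and -0.03 at day 30, against 0.03, 0.84 and 1.20 at day 7. The ranges came close but did not overlap. Prg4 had -1.57, -0.95 and -0.18 at day 30, against 0.18, 0.28 and 1.38 at day 7, again with no array of one day inside the range of the other. Such a gap was seen for 0.164% of all probe sets, and for 0.12% with day 30 lower. In a bulk tissue, fewer cells of a type and less RNA per cell cannot be told apart.

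Angptl7 was lower at day 30 in the arrays of each treatment. After Dex the log2 values were -0.77, -0.07 and -0.03 at day 30, against 1.07, 0.83 and 0.94 at day 7. After TAA they were -0.52, -0.42 and -0.13 at day 30, against 0.84, 1.20 and 0.65 at day 7. After BSS they were -1.73, -0.51 and -0.47 at day 30, against 0.26, 0.92 and 0.03 at day 7. No array at day 30 reached any array at day 7 in the same treatment, and the vehicle showed the gap as well as the steroids. The log2 differences were -1.24 after Dex, -1.26 after TAA and -1.31 after BSS (SE 0.31 each), and after BSS it was -0.89 without BSS day 30 replicate 1, the lowest array. With 3 arrays a group, none of these passed the adjusted threshold by itself (limma, adjusted p = 0.766, 0.617 and 0.361 in that order).

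Prg4 went the same way. After Dex it had log2 values of -1.10, -0.52 and -0.18 at day 30, against 0.20, 0.72 and 0.25 at day 7. After TAA it had -0.999, -0.968 and -0.810 at day 30, against 0.20, 0.39 and 1.38 at day 7. After BSS it had -1.57, -0.95 and -0.44 at day 30, against 0.18, 0.98 and 0.28 at day 7. The 3 treatments again had no overlap between days, with differences of -0.99 after Dex, -1.58 after TAA and -1.47 after BSS, none past the adjusted threshold. Within a treatment, 0 of 14 probe sets passed at an adjusted p under 0.05 in limma after Dex, TAA or BSS, where the share of all probe sets was 0.00887%, 0.00222% and 0.00222% in that order. At an unadjusted p under 0.05, 6, 2 and 4 members passed, beside 3.75%, 4.96% and 11.4% of all probe sets.

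**Figure D1:**
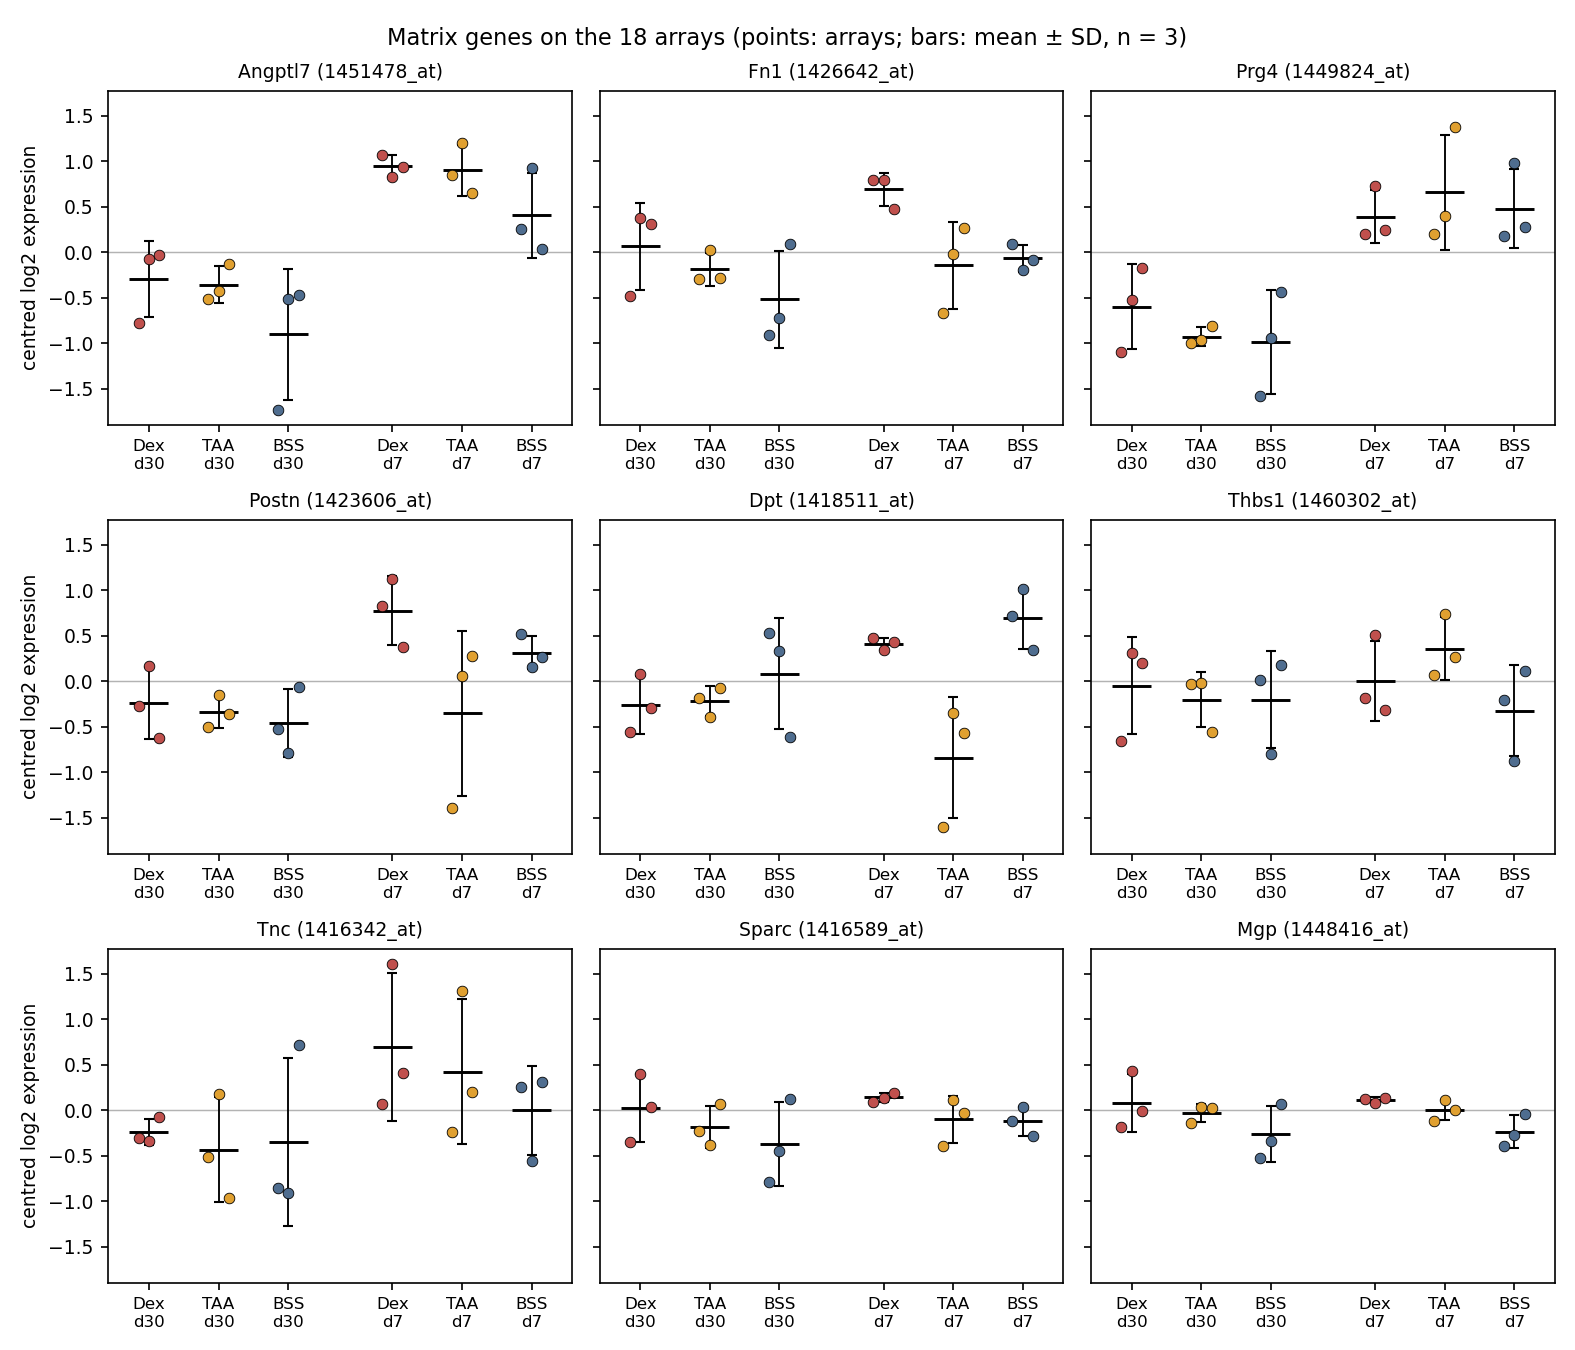
Centred log2 expression (vertical axis) of 9 genes on the 18 arrays, 1 probe set for each gene, by treatment at day 30 and at day 7 (d30 and d7, horizontal axis). Points are arrays and bars are the mean ± SD of 3 arrays. Angptl7 and Prg4 lie below 0 on every array at day 30 and above 0 on every array at day 7, and Dpt after TAA at day 7 lies below the other arrays of that day.

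Mean values of rod and other marker lists also moved between the days, and not alike in each treatment. Averaged over treatments, 0 of 6 rod, 0 of 7 choroid endothelium and 0 of 15 RPE probe sets had an unadjusted p under 0.05 (limma). For tendon and sclera it was 1 of 13 and for fibroblast 4 of 17, beside 13.8% of all probe sets. Within Dex, TAA and BSS, rods had 0, 0 and 3 of 6 such probe sets. Tendon and sclera had 0, 3 and 1 of 13, and fibroblast 1, 2 and 1 of 17. Choroid endothelium and RPE had 0 in each treatment. The shares of all probe sets were 3.75%, 4.96% and 11.4% in that order. Averaged over treatments, all 6 rod genes had higher values at day 30 than at day 7, with a median difference of 1.72 over the genes. The median was -0.45 after Dex, with 0 of 6 genes higher, 1.71 after TAA and 4.06 after BSS, with 6 of 6 higher in both. Rod scores ranged between -2.32 and 4.32 at day 30 and between -2.28 and 2.75 at day 7. All 6 choroid endothelium and all 9 RPE genes had lower values averaged over treatments, with medians of -0.10 and -0.09. Tendon and sclera genes were higher in 5 of 7 after Dex, 5 of 7 after TAA and 0 of 7 after BSS, and fibroblast genes in 2 of 8, 5 of 8 and 0 of 8 in the same order. The part of these tissues in the fall of Angptl7 and Prg4 was not tested.

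The remaining members gave smaller differences between the days. Postn, which encodes periostin, a matricellular protein that links collagen and integrins, had a log2 difference of -0.59 (SE 0.20, limma, adjusted p = 0.213). Tnc, which encodes tenascin C, a glycoprotein of healing tissue, had -0.71 (SE 0.28, adjusted p = 0.289, limma) on its more variable probe set. Fn1, which encodes fibronectin, had -0.37 (SE 0.16, adjusted p = 0.318, limma) on its more variable probe set. Together with Angptl7, Prg4 and Sparc these made 6 of 14 probe sets at an unadjusted p under 0.05, beside 13.8% of all probe sets. Without TAA day 7 replicate 1, on which Postn was lowest, its difference was -0.76 (limma, adjusted p = 0.0342) and it became the third member called. Mgp, which encodes matrix Gla protein, an inhibitor of calcification, differed by -0.03, or 0.01 without BSS day 30 replicate 1.

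**Figure D2:**
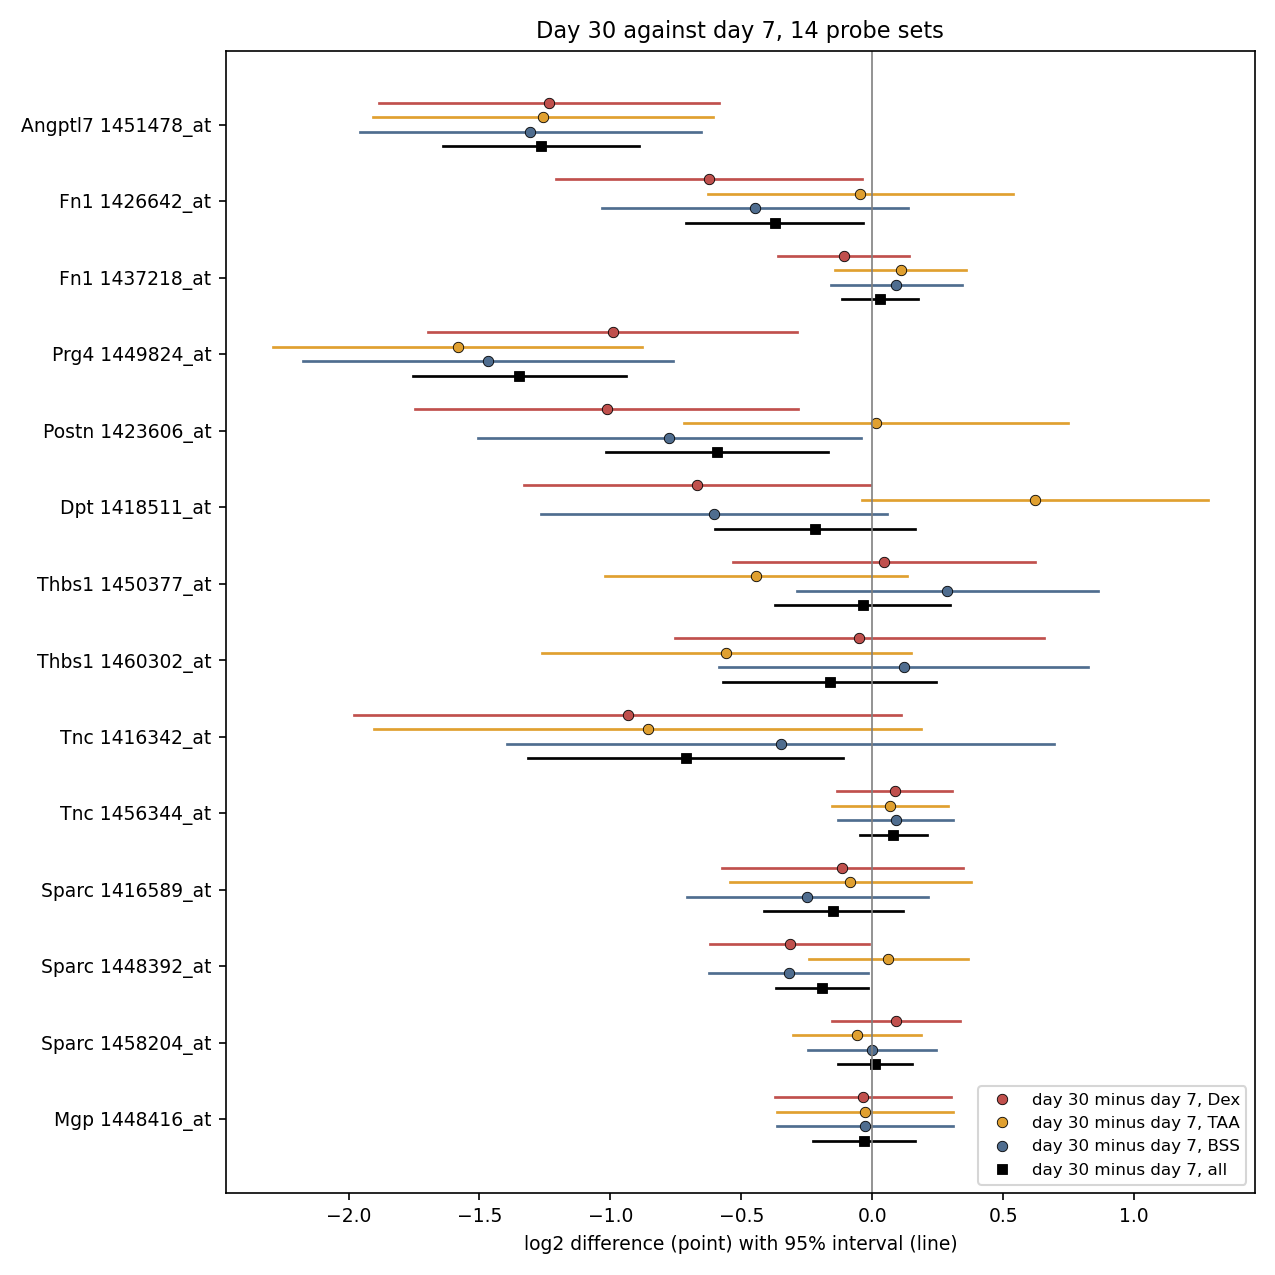
Day 30 minus day 7 for the 14 probe sets, as the log2 difference (horizontal axis, point) with its 95% interval (line), after Dex, after TAA, after BSS and averaged over all treatments. The intervals of Angptl7 and Prg4 lie below 0 in all 4 estimates, and Dpt and Postn have estimates below 0 after Dex and BSS and above 0 after TAA.

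Members were also separated by day within a treatment. After Dex the 3 arrays at day 30 lay below the 3 at day 7 for 7 of 14 probe sets, 1 each of Angptl7, Fn1, Prg4, Postn, Dpt, Tnc and Sparc, where groups did not overlap for 7.86% of all probe sets and day 30 was lower for 4.72%. After TAA this held for 3 of 14 (Angptl7, Prg4 and Thbs1), beside 12.2% and 7.22%, and after BSS for 3 of 14 (Angptl7, Prg4 and Postn), beside 12.4% and 6.97%. Differences between these counts were not tested. Postn had 0.17, -0.27 and -0.62 at day 30 after Dex, against 0.82, 1.13 and 0.37 at day 7, a log2 difference of -1.01, while the difference was 0.01 after TAA and -0.77 after BSS. The Dex effect on Postn did not pass the test of a change between days, and 0 of 14 probe sets did so for Dex at an adjusted p under 0.05 in limma, with 0 at an unadjusted p under 0.05, where 2.97% of all probe sets were under it.

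Against BSS, no member passed for either steroid at either day. The comparisons of Dex and TAA at 1 day share the same 3 BSS arrays, and the doses of the steroids differ, so their values are given side by side and were not compared. limma called 0 of 14 probe sets at an adjusted p under 0.05 for Dex at day 30, TAA at day 30, Dex at day 7 and TAA at day 7, where 0%, 0%, 0% and 0.00222% of all probe sets were called in that order. At an unadjusted p under 0.05 there were 1, 0, 2 and 2 members, beside 4.23%, 2.63%, 2.23% and 3.93% of all probe sets, and the methods' t-test after Benjamini-Hochberg adjustment also called 0 in each.

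At the thresholds of the methods, an unadjusted p up to 0.05 together with at least 1.5-fold, more members were counted, with the p taken from limma. Day 30 gave 0 for Dex and 0 for TAA, beside 0.477% and 0.175% of all probe sets, but 4 for Dex (Angptl7, Fn1, Dpt and Sparc, beside 0.603%) and 3 for TAA (Angptl7, Fn1 and Dpt, beside 0.548%) without BSS day 30 replicate 3, and 3 for Dex (Angptl7, Fn1 and Sparc, beside 0.692%) without Dex day 30 replicate 1. Day 7 gave 1 for Dex (Fn1), beside 0.104%, and 2 for TAA (Dpt and Thbs1), beside 0.452%. Between the days there were 4 (Angptl7, Prg4, Postn and Tnc), beside 0.958%, with 5 after Dex (Angptl7, Fn1, Prg4, Postn and Dpt), beside 0.381%, 2 after TAA (Angptl7 and Prg4), beside 0.716%, and 3 after BSS (Angptl7, Prg4 and Postn), beside 3.07%. The change of effect between the days gave 0 members for Dex, beside 0.807%, and 1, Dpt, for TAA, beside 0.701%. With the p of the methods' t-test, the counts were 1 for TAA at day 7 (Dpt, beside 0.317%), 4 after Dex (Angptl7, Prg4, Postn and Dpt, beside 0.319%) and 2 after BSS (Prg4 and Postn, beside 0.61%), while the other counts with such a test were the same as with limma.

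Angptl7 had values above the BSS mean in both steroids at both days, all short of the threshold. At day 30 it averaged -0.29 ± 0.42 after Dex and -0.36 ± 0.20 after TAA, against -0.90 ± 0.72 after BSS (SD, n = 3 each). The differences from BSS were 0.61 for Dex and 0.54 for TAA, and without BSS day 30 replicate 1 they were 0.20 and 0.13. At day 7 Angptl7 averaged 0.94 ± 0.12 after Dex and 0.90 ± 0.28 after TAA, against 0.40 ± 0.46 after BSS (SD, n = 3 each). The highest BSS array, at 0.92, lay within the range of both steroids, and the differences were 0.54 and 0.50. For Angptl7 and 4 other probe sets (of Fn1, Thbs1, Sparc and Mgp), 5 of 14 in all, the log2 difference was above 0 in all 4 comparisons with BSS, beside 12.1% of all probe sets. The Fn1 probe set among them was 1437218_at, the less variable of that gene. Thbs1 1460302_at left the count when array medians were subtracted. Sparc 1416589_at left it without BSS day 30 replicate 1, so that each of these settings gave 4 of 14.

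Prg4 showed no such offset. It averaged -0.60 after Dex and -0.93 after TAA, against -0.99 after BSS at day 30, where BSS was widest. The differences from BSS were 0.39 for Dex and 0.06 for TAA at day 30, and 0.09 and -0.23 without BSS day 30 replicate 1. At day 7 they were -0.09 for Dex and 0.18 for TAA.

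Fibronectin, the matrix glycoprotein that binds integrins and collagen and is known to build up in steroid-treated meshwork, had the clearest separation after Dex at day 7. Its more variable probe set, 1426642_at, had log2 values of 0.80, 0.80 and 0.48 after Dex at day 7, against 0.09, -0.20 and -0.09 after BSS. All 3 Dex arrays lay above all 3 BSS arrays, with a log2 difference of 0.76 (SE 0.27, 95% interval 0.17 to 1.34), or 1.69-fold (limma, unadjusted p = 0.0142, adjusted p = 1). At day 30 the Dex arrays had -0.48, 0.38 and 0.31, against -0.91, -0.73 and 0.09 for BSS, which overlapped, with a difference of 0.58, or 0.39 without BSS day 30 replicate 1. After TAA the same probe set differed from BSS by 0.33 at day 30, or 0.13 without that array, and by -0.07 at day 7. The other Fn1 probe set, 1437218_at, spanned -0.25 to 0.36 over the 18 arrays, and its correlation with the first was 0.45. After Dex at day 7 it differed from BSS in the same direction, by 0.25, between overlapping groups (95% interval -0.004 to 0.49, limma, unadjusted p = 0.0534).

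Mgp and Sparc were the other members whose Dex arrays at day 7 lay apart from BSS, Sparc on its most variable probe set only. The other Sparc probe sets, 1448392_at and 1458204_at, overlapped with BSS, with differences of 0.16 and -0.15. Mgp had 0.12, 0.08 and 0.14 after Dex, against -0.39, -0.28 and -0.04 after BSS, so the Dex arrays were close together and the BSS arrays spread below them. The log2 difference was 0.35 (SE 0.16, limma, unadjusted p = 0.0425, adjusted p = 1). Sparc, which encodes a collagen-binding protein also called osteonectin, had 0.09, 0.14 and 0.19 after Dex, against -0.12, 0.03 and -0.28 after BSS on its most variable probe set, a gap in the same direction with a difference of 0.26. These 3 of 14 probe sets that did not overlap, all higher after Dex, stand beside 8.95% of all probe sets that did not overlap and 4.18% that lay higher. At day 30, 0 of 14 probe sets lay apart from BSS after Dex, beside 4.84%, and 0 after TAA, beside 5.97%.

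Other cell type lists moved in the same comparison. All 6 choroid endothelium and all 6 rod genes had higher values after Dex than after BSS at day 7, with median differences of 0.37 and 2.80. Rod scores ranged between -0.38 and 2.29 after Dex, against -2.05 and -0.79 after BSS, and endothelium scores between 0.01 and 0.36 after Dex, against -0.34 and 0.03 after BSS. Yet 0 of 7 choroid endothelium and 0 of 6 rod probe sets had an unadjusted p under 0.05 (limma), beside 2.23% of all probe sets. The part of these cells in the Fn1, Mgp and Sparc values was not tested.

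At day 30 Mgp had -0.19, 0.43 and -0.01 after Dex, against -0.52, -0.34 and 0.07 after BSS, which overlapped. The difference of 0.34 (limma, unadjusted p = 0.0467, adjusted p = 0.999) was 0.17 without Dex day 30 replicate 2 and 0.21 without BSS day 30 replicate 1. After TAA, Mgp differed from BSS by 0.24 at both days, and at day 30 by 0.11 without that BSS array. Sparc had -0.35, 0.39 and 0.04 after Dex at day 30, against -0.79, -0.45 and 0.13 after BSS, a difference of 0.40 between overlapping groups, or 0.19 without BSS day 30 replicate 1. The third Sparc probe set, 1458204_at, was correlated at -0.65 and -0.58 with the other two, which were correlated at 0.77 with each other, so the probe sets of this gene disagree.

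**Figure D3:**
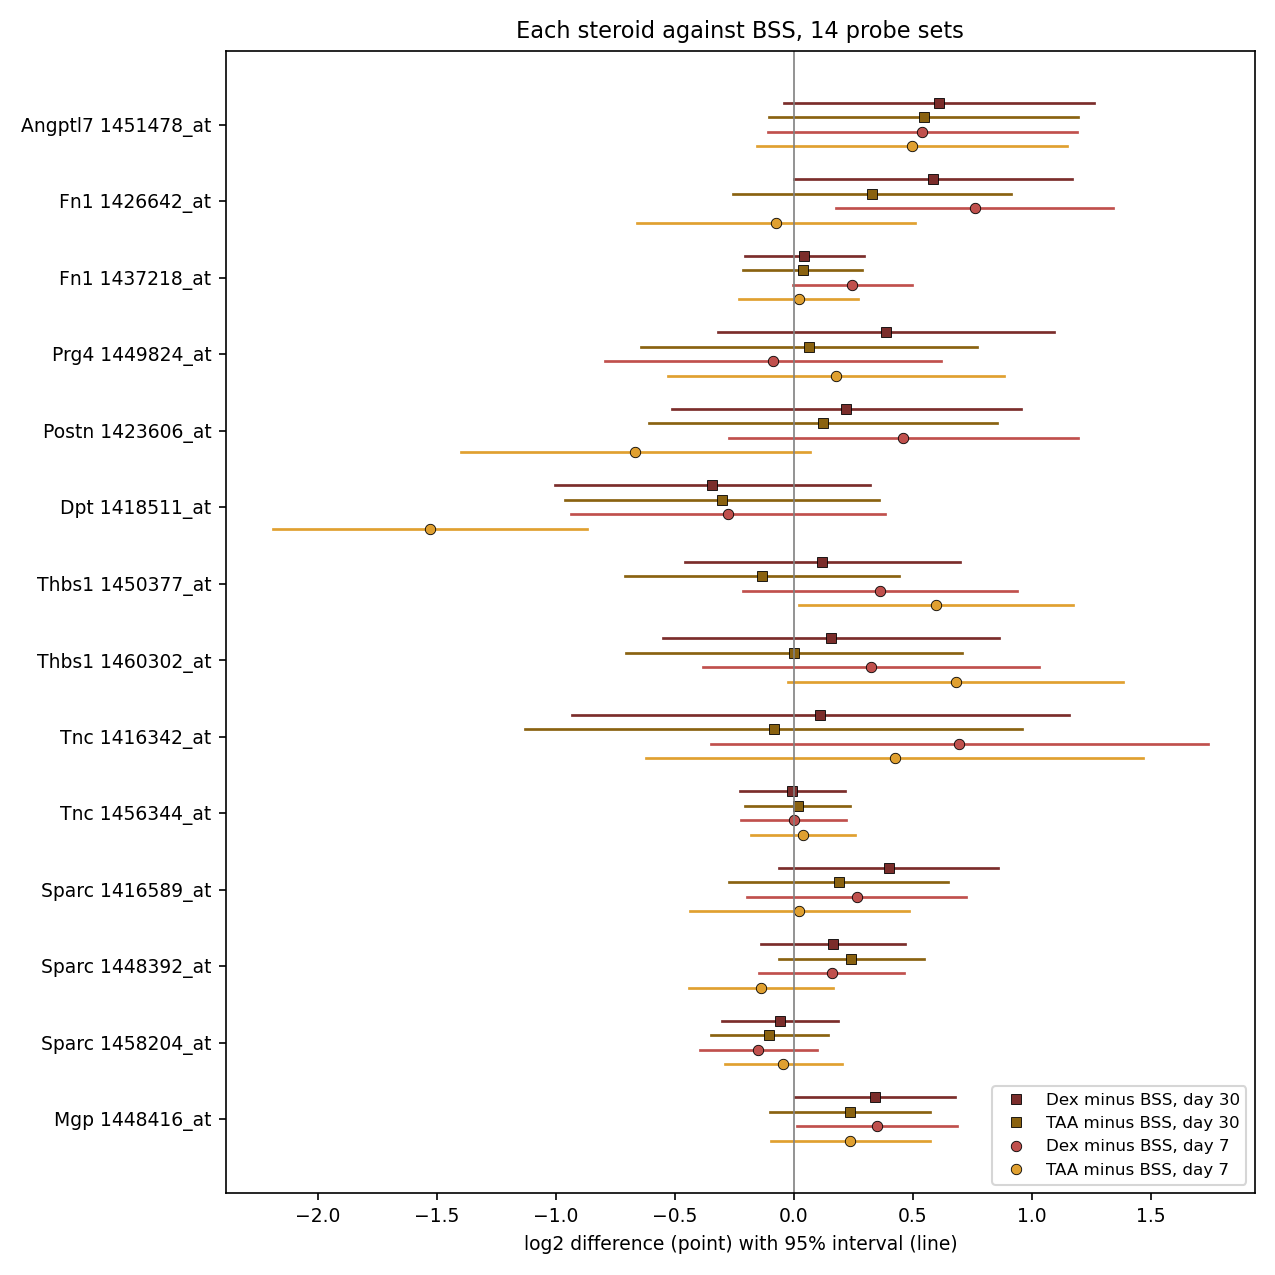
Each steroid minus BSS for the 14 probe sets, as the log2 difference (horizontal axis, point) with its 95% interval (line), for Dex and TAA at day 30 (squares) and at day 7 (circles). The interval of Dpt after TAA at day 7 lies farthest from 0, at -2.19 to -0.87, and most other intervals include 0.

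Dermatopontin, encoded by Dpt, is a small matrix protein that binds decorin and promotes collagen fibril assembly, and its difference after TAA at day 7 was the farthest from 0 of any difference between a steroid and BSS in these genes. It had log2 values of -1.60, -0.35 and -0.57 after TAA, against 0.72, 1.01 and 0.34 after BSS. All TAA arrays lay below 0 and all BSS arrays above it, and this was the 1 of 14 probe sets that did not overlap, beside 10.8% of all probe sets, and 6.26% with TAA lower. The difference was -1.53 (SE 0.31, 95% interval -2.19 to -0.87), or 2.88-fold, and it ranked 5 among all probe sets by p (limma, unadjusted p = 0.000174, adjusted p = 0.996). Without TAA day 7 replicate 1 the difference was -1.15. After Dex at day 7 the values were 0.47, 0.34 and 0.43, which overlapped with BSS, with a difference of -0.28.

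At day 30 the gap between TAA and BSS was not seen in Dpt. It had -0.18, -0.40 and -0.08 after TAA and -0.56, 0.08 and -0.29 after Dex, against 0.53, 0.33 and -0.61 after BSS. The BSS arrays ran both above and below the steroid arrays, and the differences were -0.30 for TAA and -0.34 for Dex, or -0.08 and -0.12 without BSS day 30 replicate 1. The TAA effect at day 30 minus that at day 7 was 1.23 (SE 0.44, 95% interval 0.29 to 2.16, limma, adjusted p = 0.994). For this change of the TAA effect 0 of 14 probe sets passed the adjusted test in limma and 1, Dpt, was under an unadjusted p of 0.05, beside 3.03% of all probe sets.

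Lists of other cell types moved in the same TAA arrays. All 8 skeletal muscle genes had lower values after TAA than after BSS at day 7, with scores between -0.66 and -0.19 after TAA, against -0.06 and 0.28 after BSS. Of the keratocyte and cornea genes, 4 of 6 were lower, with scores between -0.98 and -0.19 after TAA, against -0.00137 and 0.67 after BSS. Of the fibroblast genes 5 of 8 were lower, with scores between -0.15 and 0.04 after TAA, against 0.01 and 0.38 after BSS. All 6 rod and all 9 RPE genes were higher after TAA, with medians of 1.43 and 0.09. At an unadjusted p under 0.05 (limma) there were 5 of 12 muscle, 1 of 8 cornea and 5 of 17 fibroblast probe sets. For rods it was 0 of 6 and for RPE 0 of 15, beside 3.93% of all probe sets. The muscle and cornea scores did not overlap between these groups, as Dpt did not, and the part of these lists in the Dpt difference was not tested.

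Periostin had -1.39, 0.06 and 0.27 after TAA at day 7, against 0.52, 0.16 and 0.26 after BSS. A single TAA array, replicate 1, was far below the rest and the groups overlapped, with a difference of -0.67 (SE 0.34, limma, unadjusted p = 0.0716). The same array was the lowest TAA array of day 7 for Dpt, Prg4, Mgp, Fn1 (1426642_at) and Thbs1 (1460302_at). It was also the lowest for Sparc (1416589_at and 1448392_at) and Tnc (1416342_at and 1456344_at). For Angptl7, Fn1 1437218_at and Thbs1 1450377_at it lay in the middle, and on Sparc 1458204_at it was the highest. After Dex at day 7 Postn differed from BSS by 0.46.

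Thrombospondin 1, encoded by Thbs1, activates latent TGF-β and had higher TAA values at day 7 on both probe sets. The probe set 1450377_at had 0.23, 0.91 and 0.01 after TAA, against -0.09, -0.67 and 0.13 after BSS, and 1460302_at had 0.06, 0.74 and 0.27 after TAA, against -0.21, -0.87 and 0.11 after BSS. TAA replicate 2 was the highest and BSS replicate 2 the lowest on both, and the groups overlapped. The log2 differences were 0.60 (SE 0.27) and 0.68 (SE 0.33), and the first was 0.34 without TAA day 7 replicate 2. Their correlation over the 18 arrays was 0.86. A further Thbs1 probe set is shared with another gene and was not used.

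Tenascin C had single arrays far from the rest of their group. On 1416342_at it had 0.07, 1.61 and 0.41 after Dex and -0.24, 1.31 and 0.21 after TAA at day 7, against 0.25, -0.56 and 0.31 after BSS. Replicate 2 was the highest array for both steroids and the lowest for BSS, and the SE of 0.49 was close to the Dex difference of 0.70. The other Tnc probe set, 1456344_at, was flat, at -0.19 to 0.21 over the 18 arrays, and its correlation with the first was 0.14.

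Spread over the 18 arrays differed widely among the members. Prg4 and Angptl7 were the most variable, with an SD of 0.804 and 0.785, at the 98.5th and 98.4th percentile of all probe sets, and Tnc followed with 0.708. Dpt had 0.620, Postn 0.605 and Fn1 0.489, while Sparc had 0.293 and Mgp 0.227. The flat Tnc probe set lay at the 13.7th percentile.

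The members were correlated with each other to differing degrees. All 18 arrays enter these correlations, so they share the days, the treatments and the cell content of each sample, and they are given as a description. Angptl7 and Prg4 had the highest correlation of the 36 pairs, 0.86, which was 0.55 after group means were removed, 0.84 within day 30 and 0.086 within day 7. The next highest were 0.80 for Fn1 and Postn, 0.79 for Fn1 and Sparc and 0.78 for Sparc and Mgp, which were 0.71, 0.72 and 0.76 within groups. Thbs1 and Tnc had 0.69, and 0.73 within groups. Dpt stood apart, with correlations between -0.34 and 0.56 with the others.

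**Figure D4:**
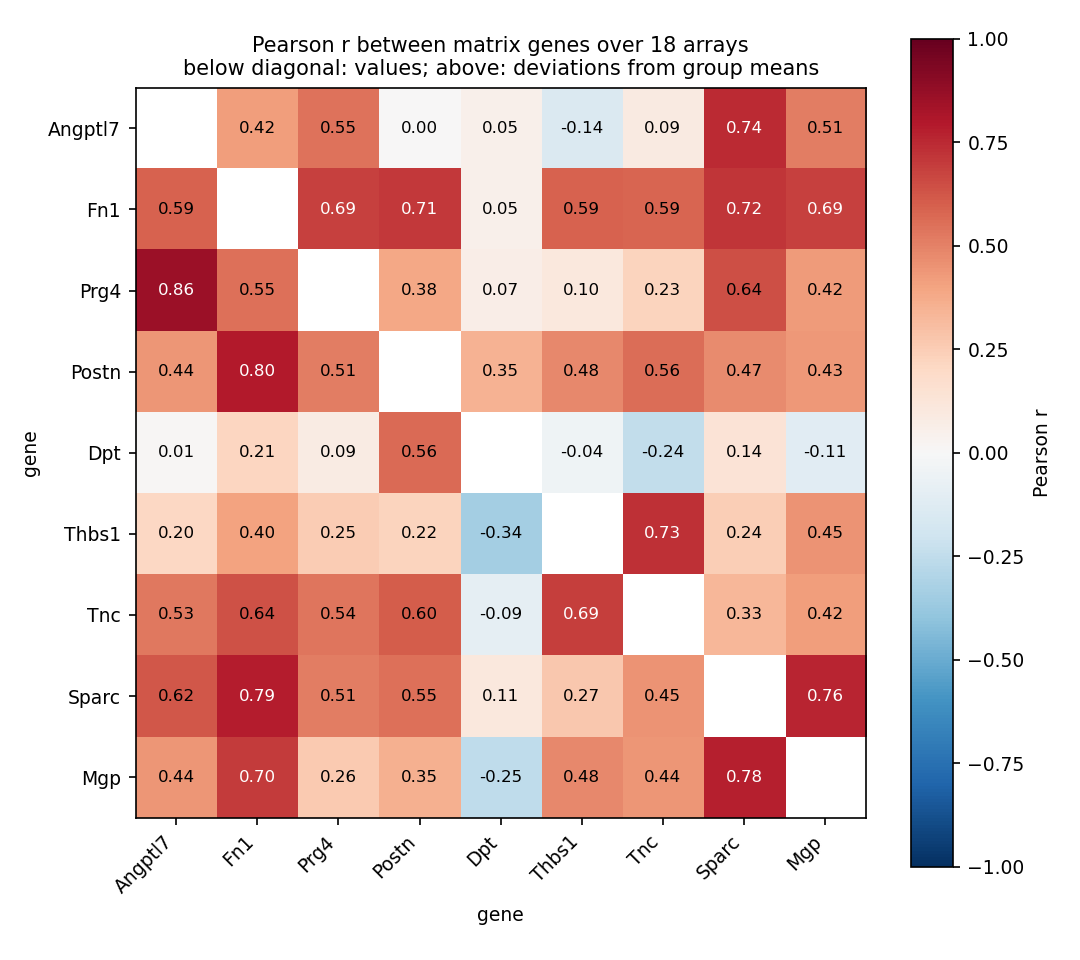
Pearson correlation between 9 genes (both axes) over the 18 arrays below the diagonal, and after removal of group means above it, with colour for the value. Over all arrays the pairs Angptl7 and Prg4 (0.86), Fn1 and Postn (0.80), Fn1 and Sparc (0.79) and Sparc and Mgp (0.78) have the highest values.

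Outside the set, the genes most like Angptl7 over the 18 arrays, among 18185 genes, were Smpdl3b (r = 0.91, rho = 0.87), Inmt (r = 0.90, rho = 0.86) and Tspan4 (r = 0.90, rho = 0.88). Smpdl3b encodes a phosphodiesterase of the sphingomyelinase family, Inmt an indolethylamine methyltransferase and Tspan4 a tetraspanin of the cell membrane. They were chosen over arrays of both days, so a difference between the days is part of the choice, and their log2 differences of -0.71, -1.10 and -0.61 between day 30 and day 7 are a description. Within day 7 the correlations were 0.53, 0.33 and 0.61, and within day 30 they were 0.87, 0.83 and 0.76.

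A list of 41 other matrix genes of the meshwork and eye was measured for 36 genes on 100 probe sets. Between day 30 and day 7, 0 were called as higher and 4 as lower by limma: Col8a1, a short-chain collagen of basement membranes (log2 difference -0.66, adjusted p = 0.0283), Col5a2, a fibril-forming collagen (-0.60, adjusted p = 0.0307), Lamc1, the gamma chain of laminins (-0.50, adjusted p = 0.0283), and Itgav, an integrin subunit that binds fibronectin and vitronectin (-0.47, adjusted p = 0.0442). These 4 of 100 stand beside 0.399% of all probe sets called and 0.308% called as lower, averaged over the 3 treatments. The median difference was -0.11 over the list, beside -0.18 over the 14 members and -0.02 over all probe sets. For Dex at day 30, TAA at day 30, Dex at day 7 and TAA at day 7, limma called 0 of the 100 probe sets, with 11, 7, 3 and 3 at an unadjusted p under 0.05, where the shares of all probe sets were 4.23%, 2.63%, 2.23% and 3.93%.

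The medians of the 14 members against BSS were 0.16 for Dex and 0.05 for TAA at day 30 (0.08 and 0.01 without BSS day 30 replicate 1), and 0.29 for Dex and 0.03 for TAA at day 7. Over the matrix list they were 0.19, 0.13, 0.06 and -0.04 in the same order, and over all probe sets between -0.01 and 0.01. At day 30 the list score of BSS replicate 1, at -0.45, was the lowest of the 18 arrays, as was its Angptl7 value. The other BSS arrays of that day had list scores of -0.09 and -0.11. The list medians and counts at day 30 include replicate 1 and were not taken without it, so they cannot be set beside the members' medians without it.

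Glucocorticoid target genes were measured for 18 genes on 44 probe sets. Between the days, averaged over the 3 treatments with BSS among them, limma called 2, both lower at day 30. They were Tsc22d3, which encodes the leucine zipper protein GILZ (log2 difference -0.99, limma, adjusted p = 0.00736), and the clock gene Per1 (-0.65, limma, adjusted p = 0.0129). These 2 of 44 stand beside 0.399% of all probe sets called and 0.308% called as lower. The median day difference over the 18 genes was -0.03 after Dex, -0.32 after TAA and -0.11 after BSS. Lower at day 30 were 10, 16 and 11 of the 18 genes in that order. Against BSS limma called 0 in each of the 4 comparisons, with 3 for Dex and 2 for TAA at day 30, and 1 for Dex and 8 for TAA at day 7, of 44 at an unadjusted p under 0.05, where the shares of all probe sets were 4.23%, 2.63%, 2.23% and 3.93% in that order. After TAA at day 7, 17 of 18 genes had higher values than BSS, with scores between 0.22 and 0.64, against -0.16 and -0.08 after BSS. The correlation of Dpt with this score was -0.72 over the 18 arrays and -0.54 within groups. Those of the other 8 genes lay between -0.26 (Postn) and 0.51 (Thbs1) over the 18 arrays, and between -0.29 (Postn) and 0.48 (Prg4) within groups. TAA day 7 replicate 1 had both the highest score, 0.64, and the lowest Dpt value, -1.60. A link between these target genes and Dpt was not tested.

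**Figure D5:**
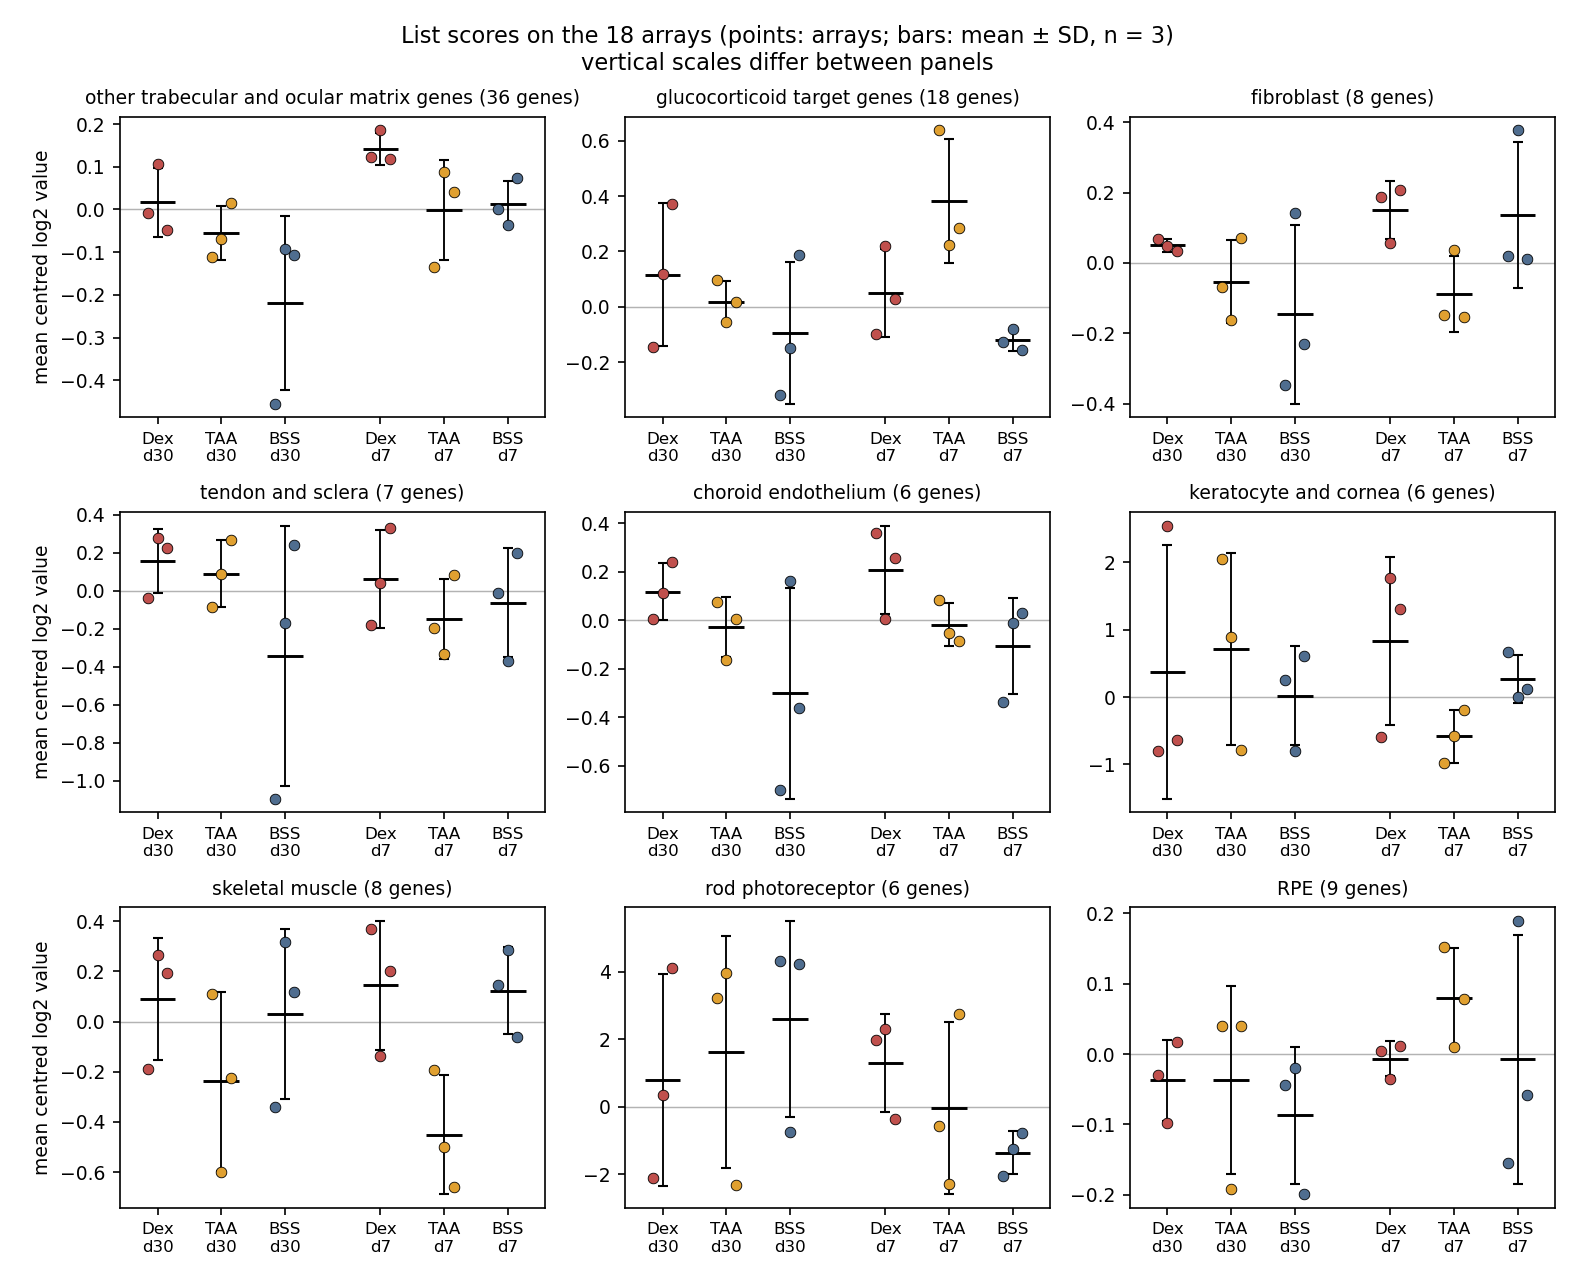
Mean centred log2 value of 9 gene lists (vertical axis, scales differ between panels) on each array by treatment at day 30 and at day 7 (d30 and d7). Points are arrays and bars are the mean ± SD of 3 arrays. The skeletal muscle and the keratocyte and cornea scores after TAA at day 7 lie below those after BSS at day 7, and the glucocorticoid target scores lie above.

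Over the 6 groups, limma's F-test called 0 of 14 probe sets at an adjusted p under 0.05, beside 0.0155% of all probe sets, and 5 were under an unadjusted p of 0.05, beside 5.06%. Angptl7 had adjusted p = 0.145, Prg4 adjusted p = 0.238 and Dpt adjusted p = 0.686 in this test (limma). These were the 3 of 14 at the threshold of the methods, an unadjusted p of 0.01 or less, which 1.2% of all probe sets reached. The methods' analysis by group gave 2, Angptl7 and Prg4, beside 1.08%.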

How the data were processed

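Arrays of the Affymetrix mouse genome design carried RNA of the RPE/choroid, for which the labels name a two-cycle labelling kit and the methods a 3′ IVT kit. The authors processed the scans in GeneSpring by RMA with the median of all samples as baseline, and the deposited values are centred log2 expression; the median of every probe set was within 5e-07 of 0. Symbols came from the platform annotation: 34958 probe sets had 1 symbol, 932 several and 9211 none. The study's filter on weak signals needs a level and could not be repeated, so all 45101 probe sets were kept.

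Group means over the 18 arrays were fitted in limma (version 3.58.1, under R 4.3.3) and moderated with eBayes (12 residual degrees of freedom, prior of 3.29), with two-sided p-values adjusted by Benjamini-Hochberg over all probe sets and called under 0.05. The fit was tested on simulated data. Replicates are described as separate animals, and 0 pairs of arrays were identical. A gene with several probe sets was drawn by the one of largest SD over the arrays. The members and lists were chosen with earlier results of these data known. The text names every member, at most 4 called genes of a list with the largest differences, and the 3 genes best correlated with Angptl7. Alternatives were the methods' t-test and thresholds, array weights, array median scaling, a robust prior, only the arrays compared, 1 value per gene, only probe sets with 1 symbol, a replicate block and each array left out. Plots used Python 3.11.15 with matplotlib 3.10.9.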

Additional observations from a re-analysis of the deposited data

How the results depend on the processing

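Under no alternative did a difference past the threshold change sign. At the study's thresholds the members counted were 1 for Dex at day 7, 2 for TAA at day 7, 4 between the days, 5 after Dex, 2 after TAA, 3 after BSS and 1 for the change of the TAA effect, and 3 in the F-test; with 1 array left out they were 1 to 2, 1 to 3, 2 to 4, 2 to 5, 2 to 4, 2 to 4, 1 to 3 and 3 to 5 in that order. With array weights limma called 2 members between the days after BSS, Angptl7 at -1.56 and Prg4 at -1.65 (adjusted p = 0.0217 each), beside 7.17% of all probe sets, and 1, Angptl7, in the F-test, beside 0.0599%. With 1 array left out the count was 0 to 2 after BSS (2, Angptl7 and Prg4, without BSS day 30 replicate 2, beside 4.04% of all probe sets) and 2 to 3 over all treatments. Over those fits the day difference was -1.34 to -1.13 for Angptl7 and -1.44 to -1.23 for Prg4, and both stayed called, while the count over all probe sets lay between 63 (without TAA day 7 replicate 2) and 1255 (without BSS day 30 replicate 2), and was 2409 with array weights. Replicate numbers were not treated as pairs. After group means were removed, same-numbered arrays of compared groups correlated at -0.694 to 0.246, and differently numbered arrays at -0.552 to 0.758. With 3 arrays a group these values cannot settle whether numbers pair the samples. A replicate block left 2 members called between the days, and 98 probe sets in all against 180 without it. The 3 arrays a group and centred values limit what could be seen, and no level, detection or cell content could be measured.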
